A study of Mus musculus with 6 samples.

Results

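Intermediate filament genes were examined in polyadenylated RNA of cerebral cortex taken from C57BL/6 mice on postnatal day 7. The set held 8 genes, Gfap, Vim, Nes, Synm, Nefl, Nefm, Nefh and Ina, found by symbol among the 35857 gene rows of the deposited tables. There were 3 libraries from Qk knockout brains, whose genotype label was Qk-/-, and 3 from control brains, labelled wild type. The Qk product, quaking, binds RNA in glia and neural progenitors. The sources used here give neither the driver or cells of the Qk deletion nor the sex of the mice and whether they were littermates. From the title of the series, the comparison bears on the part quaking plays when neural stem cells turn from making neurons to making glia.

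Intermediate filaments are rope-like polymers of the cytoskeleton whose subunits differ by cell type. In the brain, radial glia and other progenitors carry nestin and vimentin, and astrocytes take up GFAP as they mature while keeping some vimentin. Neurons build their filaments from alpha-internexin and the light, medium and heavy neurofilament chains, of which the heavy chain is the last to accumulate as axons mature. Vimentin is also made by endothelial cells, mural cells, fibroblasts and microglia, so a cortex library holds Vim transcripts of several cell types. In tissue RNA, fewer cells of a type and less RNA per cell cannot be told apart.

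Values are TPM, transcript abundances scaled by length and to one fixed total per library, so that levels of different genes can be compared. Between 18971 and 19280 genes per knockout library and 19233 to 19710 per control library had a TPM above 0. The number of reads behind a value is unknown. Qk was at 14.6, 15.2 and 15.4 TPM in knockout replicates 1, 2 and 3, against 36.5, 43.2 and 41.3 TPM in control replicates 1, 2 and 3, a log2 change of −1.36 (standard error 0.0945; limma, adjusted p = 0.000855). All log2 changes are knockout minus control on the log2(TPM + 1) scale, where low genes change less than in TPM, and a gene was called when its p, adjusted by Benjamini-Hochberg over the 14994 tested genes, was under 0.05.

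Of the 8 intermediate filament genes, all of which were tested, Vim rose in the knockout cortex and was the 1 gene called. Of all tested genes 0.387% were called, 0.1% as higher and 0.287% as lower in the knockout. The other 7 members were not called, and 6 of the 8 had a log2 change below 0. Knockout and control values did not overlap for 5 of the 8, with Vim and Nes higher and Gfap, Nefl and Nefm lower in the knockout libraries. Such a separation was seen in 14.2% of all tested genes, in 5.2% with the knockout higher and in 8.98% with it lower. The median log2 change was −0.19 over the 8 members and −0.026 over all tested genes.

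**Figure D1:**
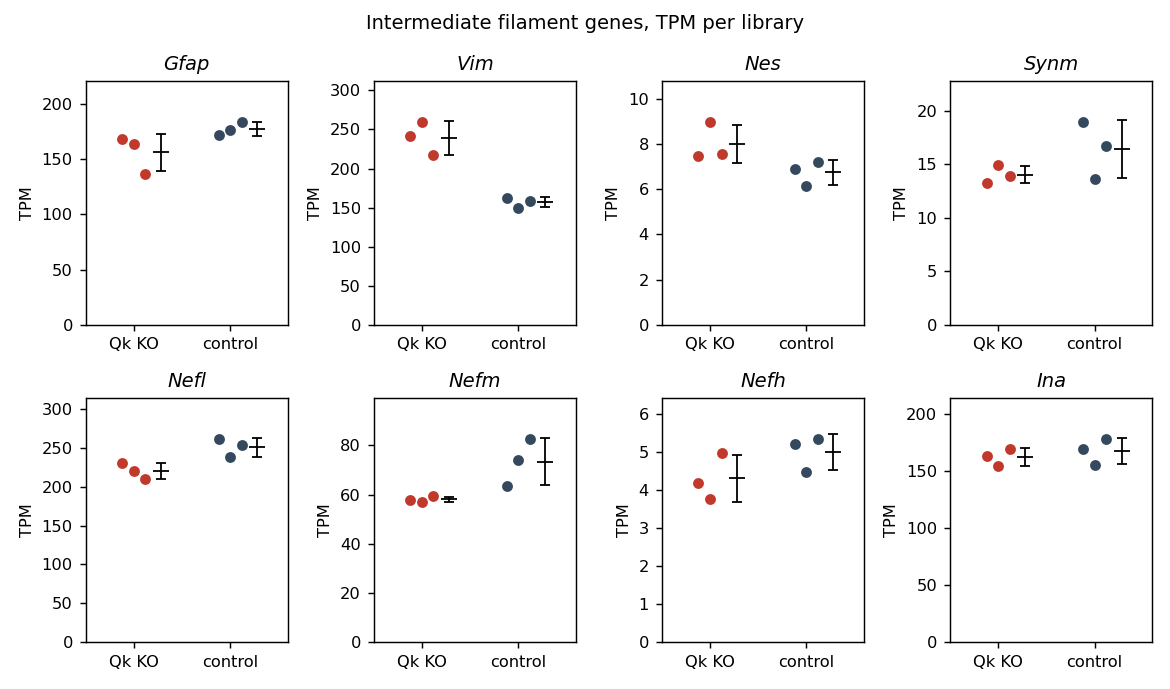
TPM of the 8 intermediate filament genes in each library (points, Qk knockout left of control, with replicates 1 to 3 from left to right), with the group mean and SD beside them (n = 3 each). Vim was at 217 to 260 TPM in the knockout libraries and at 150 to 162 TPM in the control libraries, while Synm, Nefh and Ina overlapped between the groups.

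Vim, the vimentin gene of immature glia, progenitors and vascular cells, was at 241, 260 and 217 TPM in knockout replicates 1, 2 and 3, against 162, 150 and 159 TPM in control replicates 1, 2 and 3. Every knockout library lay above every control library, and the knockout libraries were spread more widely. The mean was 239 ± 21.6 TPM in the knockout and 157 ± 6.17 TPM in the control cortex (SD, n = 3 each), a ratio of 1.53. Its log2 change was 0.60 (standard error 0.0819, 95% interval 0.42 to 0.79; limma, adjusted p = 0.0193), higher than that of 98.5% of all tested genes. The gene (Entrez 22352) spans 13573927 to 13582826 on chromosome 2 of GRCm38, plus strand. The call was lost without knockout replicate 1 (adjusted p = 0.0848) or 2 (0.0653) and without control replicate 2 (0.1) or 3 (0.0893), while the log2 change stayed between 0.54 and 0.67. It was also lost without the filter on low values (0.0537) and without a variance trend (0.105).

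Gfap encodes the glial fibrillary acidic protein, the main filament subunit of astrocytes. It was at 168, 164 and 137 TPM in knockout replicates 1, 2 and 3, against 172, 176 and 184 TPM in control replicates 1, 2 and 3. The knockout values lay below the control values without overlap, with knockout replicate 3 the lowest of the 6. The mean was 156 ± 16.8 TPM in the knockout and 178 ± 6.27 TPM in the control cortex (SD, n = 3 each). The log2 change of −0.19 (standard error 0.0889, 95% interval −0.39 to 0.01) was not called (limma, adjusted p = 0.6), and it was −0.10 without knockout replicate 3. Since 1 value covers all Gfap transcripts, the splice forms of GFAP are not told apart. The gene (Entrez 14580) spans 102887336 to 102900912 on chromosome 11, minus strand.

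Since Vim and Gfap lay on opposite sides of their controls, the ratio of their TPM differed more between the groups than either gene. It was 1.44, 1.59 and 1.59 in knockout replicates 1, 2 and 3, against 0.938, 0.852 and 0.861 in control replicates 1, 2 and 3. Vim was thus the more abundant transcript of the pair in every knockout library, and Gfap in every control library. The mean ratio was 1.54 ± 0.0861 in the knockout and 0.883 ± 0.0476 in the control cortex (SD, n = 3 each). The ratio is a description of chosen members and was not tested.

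Nes and Synm, whose proteins assemble with vimentin or other partners rather than alone, were much less abundant. Nes, the nestin gene of neural stem cells, was at 7.48, 8.99 and 7.56 TPM in knockout replicates 1, 2 and 3, against 6.9, 6.12 and 7.2 TPM in control replicates 1, 2 and 3. The groups did not overlap, but the lowest knockout and the highest control value lay close together. The log2 change of 0.22 (standard error 0.133, 95% interval −0.08 to 0.52) was not called (limma, adjusted p = 0.711), and it was 0.14 without knockout replicate 2. Synm encodes synemin, a large filament protein that links to the dystrophin complex in muscle and is also found in astrocytes. It was at 13.3, 14.9 and 13.9 TPM in knockout replicates 1, 2 and 3, against 19, 13.6 and 16.7 TPM in control replicates 1, 2 and 3. The groups overlapped, and the control libraries were the more scattered. The log2 change of −0.20 (standard error 0.132, 95% interval −0.50 to 0.10) was not called (limma, adjusted p = 0.733), and it was −0.10 without control replicate 1 and −0.32 without control replicate 2. Nes (Entrez 18008) spans 87971078 to 87980451 on chromosome 3, plus strand, and Synm (Entrez 233335) spans 67730160 to 67759742 on chromosome 7, minus strand.

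The neuronal members all had log2 changes below 0, and none was called. Nefl, the neurofilament light chain and the core subunit of neuronal filaments, was at 231, 220 and 210 TPM in knockout replicates 1, 2 and 3, against 262, 238 and 254 TPM in control replicates 1, 2 and 3. The knockout libraries lay below the control libraries without overlap. The mean was 220 ± 10.5 TPM in the knockout and 252 ± 12.2 TPM in the control cortex (SD, n = 3 each), with a log2 change of −0.19 (standard error 0.0711, 95% interval −0.35 to −0.03; limma, adjusted p = 0.473). The 95% intervals are those of single genes and are not adjusted for the number of genes, so the intervals of Nefl and Nefm leave out 0 although neither gene was called.

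Nefm, the medium chain with side arms that space the filaments, was at 57.7, 57.1 and 59.3 TPM in knockout replicates 1, 2 and 3, against 63.5, 74.2 and 82.7 TPM in control replicates 1, 2 and 3. The knockout libraries lay close together and below all control libraries, which were widely spread. The mean was 58 ± 1.14 TPM in the knockout and 73.5 ± 9.65 TPM in the control cortex (SD, n = 3 each), a ratio of 0.79. Its log2 change of −0.33 (standard error 0.0998, 95% interval −0.55 to −0.10) was the most negative of the 8 and was not called (limma, adjusted p = 0.351).

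Nefh, the heavy chain that marks mature large axons, was the least abundant member. It was at 4.18, 3.76 and 4.98 TPM in knockout replicates 1, 2 and 3, against 5.21, 4.46 and 5.34 TPM in control replicates 1, 2 and 3, with overlapping groups. Its log2 change was −0.18 (standard error 0.158, 95% interval −0.54 to 0.18; limma, adjusted p = 0.804), and −0.11 without knockout replicate 2. Ina encodes alpha-internexin, a filament subunit that young neurons make early. It was at 163, 154 and 169 TPM in knockout replicates 1, 2 and 3, against 169, 155 and 178 TPM in control replicates 1, 2 and 3. The groups overlapped almost fully, and the log2 change was −0.04 (standard error 0.0767, 95% interval −0.22 to 0.13; limma, adjusted p = 0.918). It was −0.10 without control replicate 2, −0.08 without knockout replicate 3, −0.01 without knockout replicate 2 and 0 to 2 decimals without control replicate 3.

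**Figure D2:**
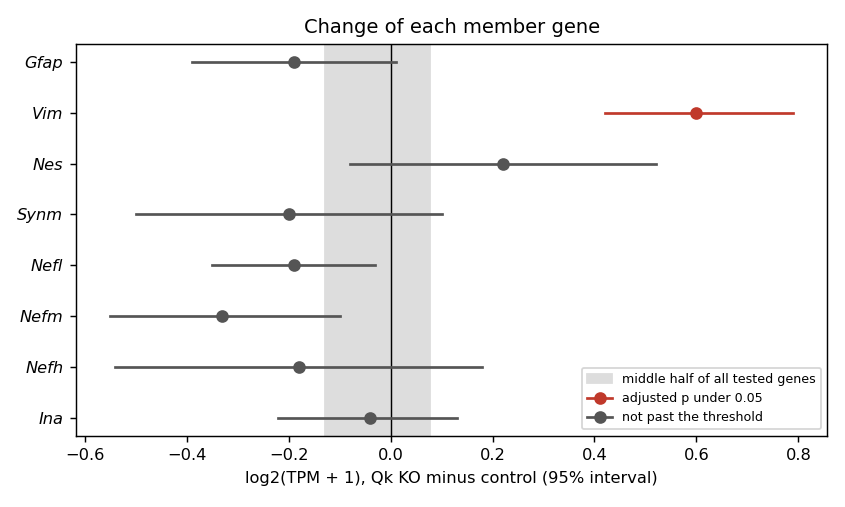
Log2 change of each intermediate filament gene on the log2(TPM + 1) scale, Qk knockout minus control (points), with the 95% interval from limma (lines) and the interquartile range of all tested genes, −0.128 to 0.078 (grey band). Vim, at 0.60, was the 1 gene past the adjusted threshold, and the intervals of Gfap, Nes, Synm, Nefh and Ina include 0.

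Nefl (Entrez 18039) and Nefm (Entrez 18040) are neighbours on chromosome 14 in GRCm38, Nefl on the plus strand from 68083863 to 68089095 and Nefm on the minus strand from 68082590 to 68124846. One of the annotated Nefm models reaches across Nefl, and 1108 exon bases are shared by the genes on opposite strands. The sources used here do not say whether the counting used the strand, so reads in that stretch could belong to either gene. Nefh (Entrez 380684) spans 4938754 to 4948064 on chromosome 11, minus strand, and Ina (Entrez 226180) spans 47014698 to 47025327 on chromosome 19, plus strand. Ina shares 456 exon bases with Nt5c2 on the opposite strand. Synm shares 426 with Gm45102, a gene without a TPM value here, and 84 with Ttc23, each on the opposite strand.

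The order of the 8 levels differed at its top. In the knockout cortex Vim was first, followed by Nefl, Ina and Gfap, and in the control cortex Nefl was first, followed by Gfap, Ina and Vim. Below these, Nefm, Synm, Nes and Nefh followed in this order in both groups, without overlap between neighbours. Among the upper genes, Vim and Nefl overlapped in the knockout libraries and so did Ina and Gfap, with Ina above Gfap in 1 of the 3 knockout libraries. In the control libraries Gfap overlapped Ina and Ina overlapped Vim, although each of the 3 control libraries kept the same order. By mean TPM among the 14994 tested genes, Vim stood at rank 677 in the knockout and 1153 in the control cortex, and Gfap at rank 1137 in the knockout and 974 in the control cortex.

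The 8 transcripts together took about the same amount of the library in both groups. The glial and progenitor sum was higher and the neuronal sum lower in the knockout. Gfap (log2 change −0.19) and Synm (−0.20) were below 0, like the neuronal members. By mean, Vim was at 239 TPM in the knockout and 157 TPM in the control cortex. Nes was at 8.01 TPM in the knockout and 6.74 TPM in the control cortex. The glial and progenitor members Gfap, Vim, Nes and Synm summed to 430, 448 and 375 TPM in knockout replicates 1, 2 and 3, against 360, 345 and 367 TPM in control replicates 1, 2 and 3. The neuronal members Nefl, Nefm, Nefh and Ina summed to 455, 435 and 443 TPM in knockout replicates 1, 2 and 3, against 500, 472 and 520 TPM in control replicates 1, 2 and 3. Neither sum overlapped between the groups, and each was left untested because the members were chosen with earlier results known. All 8 summed to 862 ± 38 TPM in the knockout and 855 ± 35.3 TPM in the control cortex (SD, n = 3 each).

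Within the glial and progenitor sum, Vim held 56.1% to 58.1% in the knockout and 43.2% to 44.9% in the control libraries. Gfap held 36.5% to 39% in the knockout and 47.9% to 50.9% in the control libraries. Nes kept a like share, 1.92% ± 0.156 in the knockout and 1.88% ± 0.0991 in the control cortex (SD, n = 3 each). Within the neuronal sum, Nefl held 49.5% ± 1.9 in the knockout and 50.6% ± 1.78 in the control cortex, and Nefm 13.1% ± 0.358 in the knockout and 14.8% ± 1.81 in the control cortex, with overlapping groups (SD, n = 3 each). Ina held 35.5% to 38.2% in the knockout and 32.8% to 34.2% in the control libraries, without overlap. Nefh made up 0.969% ± 0.137 of that sum in the knockout and 1% ± 0.0518 in the control cortex (SD, n = 3 each), so the heavy chain was a trace component of the filament transcripts at this age in both groups.

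**Figure D3:**
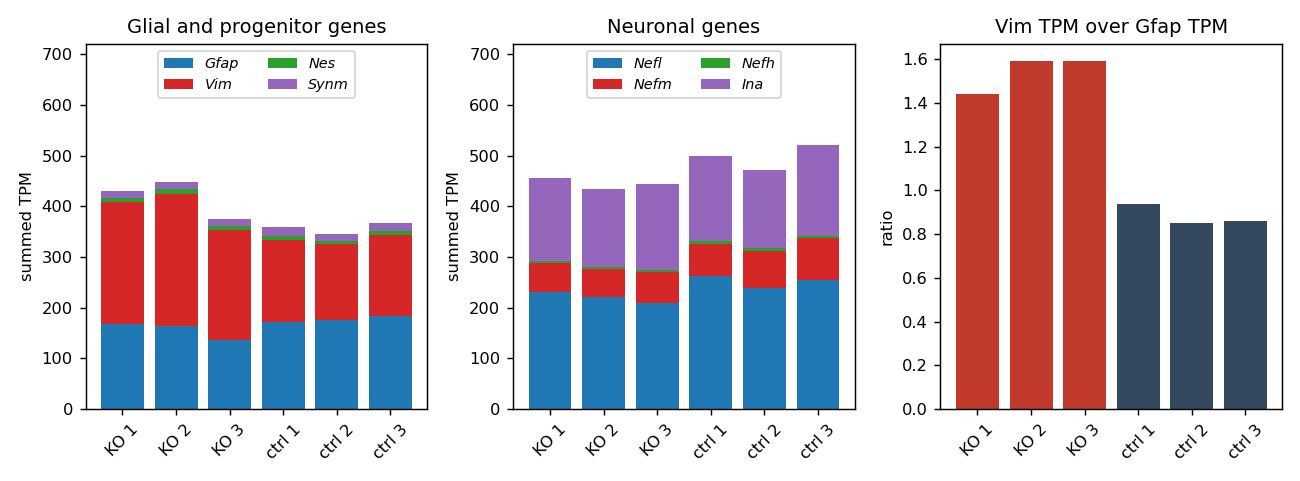
Stacked TPM of the glial and progenitor genes (left) and of the neuronal genes (middle), and the ratio of Vim to Gfap TPM (right), in each library with the Qk knockout libraries (KO) left of the control libraries (ctrl). The ratio was 1.44 to 1.59 in the knockout and 0.852 to 0.938 in the control libraries.

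Quaking binds RNA at a core of the letters ACTAAC or ACTAAT (U for T in RNA), helped by a nearby TAAC or TAAT, often in 3′ UTRs, so the longest annotated 3′ UTR of each member was searched on the transcript strand. Of the 8, Gfap, Synm and Nefl held the core, 1 copy in Gfap, 2 in Synm and 1 in Nefl. The 3′ UTRs searched for Vim, Nes, Nefm, Nefh and Ina held 0 copies. None of the 4 copies had a TAAC or TAAT, not overlapping the core, within 20 bases. They are shown with 12 bases on each side, read from the GENCODE M21 transcripts (GRCm38), with the core in capitals, because Qk is the gene targeted in these mice.
Gfap, chr11:102888472-102888501, minus strand: ccttcaccttcaACTAACaggatactcacc
Synm, chr7:67731070-67731099, minus strand: ttagaatgaaatACTAATtttcatttctaa
Synm, chr7:67730468-67730497, minus strand: taggaagcatgcACTAACtagcttatatcc
Nefl, chr14:68087763-68087792, plus strand: ataaatgaattcACTAATgttcatgtgcaa

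The search gives letters in a window and no measure of binding. The longest 3′ UTR need not be that of the main transcript. For Nefm it was 2234 bases of the 3680-base model Nefm-202, among 2 protein-coding models. For Synm it was 3276 bases of the 4457-base model Synm-204, among 5. Most of each of these models was thus 3′ UTR, and other models were not searched. Among the tested genes, 13782 had an annotated 3′ UTR, and 34.6% of these held the core. Among genes with a 3′ UTR within 25% of the same length, the core was present in 32.8% for Gfap (1341 bases), 61.7% for Synm (3276 bases) and 39% for Nefl (1648 bases). For Vim, whose 3′ UTR of 342 bases is the shortest of the 8, 11.5% of genes of like length held it. The 3 members with a core in the 3′ UTR searched had log2 changes of −0.19, −0.20 and −0.19 for Gfap, Synm and Nefl. The 5 without it there had 0.60 for Vim, 0.22 for Nes, −0.33 for Nefm, −0.18 for Nefh and −0.04 for Ina.

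**Figure D4:**
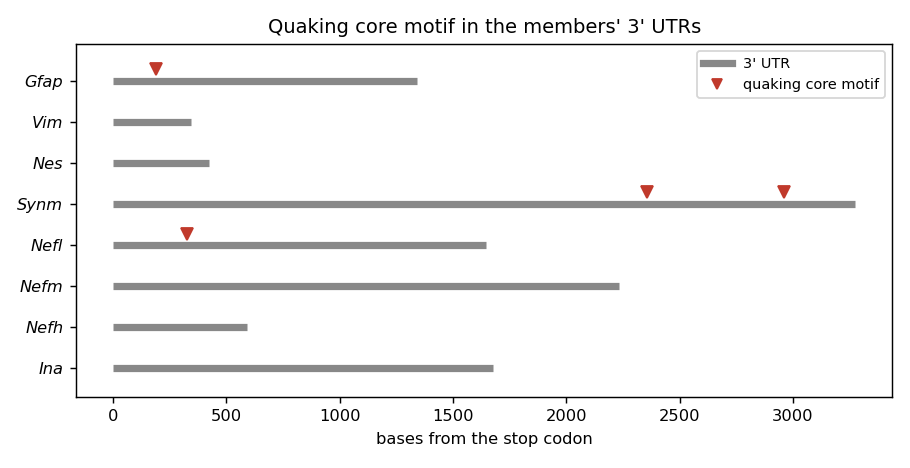
The longest annotated 3′ UTR of each intermediate filament gene, drawn to scale in bases from the stop codon (grey bars), with copies of the quaking core motif (triangles). The single copy of Gfap begins at base 188 and that of Nefl at base 328. The 2 copies of Synm lie at bases 2357 and 2959. The 3′ UTRs drawn for the other 5 genes hold none, and other models were not searched.

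Other genes of the intermediate filament system were not called in either direction. Since only 0.387% of all tested genes were called, lists of this size without a call say little. Of 60 further cytoplasmic filament genes (desmin, peripherin, the lens filament genes Bfsp1 and Bfsp2, Iffo1, Iffo2 and the keratins), 14 reached a mean of 1 TPM and were tested. Of these 0 were called, 2 had a log2 change above 0, and the median was −0.13. The most abundant were Iffo1, at 23.1 ± 2.09 TPM in the knockout and 24.7 ± 3.27 TPM in the control cortex, and Krt222, a keratin-like gene, at 17.9 ± 1.63 TPM in the knockout and 21.4 ± 1.1 TPM in the control cortex (SD, n = 3 each). Prph, the peripherin gene of peripheral neurons, was at 7.11 ± 1.25 TPM in the knockout and 6.33 ± 1.21 TPM in the control cortex (SD, n = 3 each). The 3 lamin genes, whose products line the nucleus, had a median log2 change of −0.01, with Lmna at 64 ± 16.5 TPM in the knockout and 62.6 ± 6.72 TPM in the control cortex and Lmnb1 at 46.1 ± 5.12 TPM in the knockout and 46.3 ± 2.52 TPM in the control cortex (SD, n = 3 each).

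Genes of proteins that hold, modify or remove filaments were also not called, where 0.387% of all tested genes were. Of 11 genes of plakin linkers and dystrophin-complex partners, 8 were tested, with a median log2 change of −0.07. Dtna was at 40.3 ± 1.17 TPM in the knockout and 42.5 ± 2.34 TPM in the control cortex, and Dtnb at 39.9 ± 1.09 TPM in the knockout and 38.2 ± 3.77 TPM in the control cortex (SD, n = 3 each); both encode dystrobrevins. The 8 genes of turnover and chaperones had a median of −0.02, with 4 above 0 and 4 below. Cryab was at 0.21, without overlap between the groups. Stub1, a chaperone-linked ubiquitin ligase, was at 195 ± 15.4 TPM in the knockout and 205 ± 1.89 TPM in the control cortex, and Dnajb6, a co-chaperone, at 164 ± 14 TPM in the knockout and 153 ± 16.4 TPM in the control cortex (SD, n = 3 each). The 14 kinases and motors had a median of −0.09, with 3 above 0 and 11 below. Cdk5r2 and Cdk5r1, activators of the neurofilament kinase Cdk5, had log2 changes of −0.16 (limma, adjusted p = 0.666) and −0.09 (adjusted p = 0.819). The kinase gene Aurkb was at 0.60, without overlap between the groups (limma, adjusted p = 0.359). The 9 transcription factors that act on Gfap or Nes had a median of −0.01, with 4 above 0 and 5 below. Stat3 was at 0.34, without overlap between the groups (limma, adjusted p = 0.385). Such a separation was seen in 14.2% of all tested genes. Nfix was at 114 ± 9.3 TPM in the knockout and 115 ± 8.58 TPM in the control cortex, and Pou3f3 at 62 ± 1.07 TPM in the knockout and 63.3 ± 3.18 TPM in the control cortex (SD, n = 3 each).

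Markers of the cells that make these filaments were compared in the same libraries, since they bear on where Vim and Gfap transcripts come from. Of 10 astrocyte markers, 5 were called as lower (Slc1a3, S100b, Gja1, Fgfr3 and Mlc1) and 0 as higher. Of all tested genes, 0.287% were called as lower and 0.1% as higher. The summed level of the astrocyte markers was 832 to 948 TPM in the knockout and 1225 to 1359 TPM in the control libraries. The markers were uneven: Mlc1, an endfoot membrane protein, had a log2 change of −1.11 (limma, adjusted p = 0.00153), the water channel gene Aqp4 −0.08 and the folate enzyme gene Aldh1l1 0.47, beside −0.19 for Gfap and 0.60 for Vim. Aldh1l1 was not called, although its 71.5 to 80.9 TPM in the knockout libraries did not overlap its 50.4 to 63.8 TPM in the control libraries. Of 10 markers of radial glia and neural stem cells, 2 fell, Hopx (log2 change −0.79) and Ednrb (−0.82), and 0 were called as higher. Hes5 (−0.81; limma, adjusted p = 0.0591) and Tnc (−0.50) were also lower, without overlap between the groups, but were not called. The other 6 were above 0, with Fabp7 at 0.22, Hes1 at 0.27, Sox2 at 0.17 and Prom1 at 0 to 2 decimals among them. The median of the list was 0.02. The sum of the list was 1216 to 1416 TPM in the knockout and 1172 to 1382 TPM in the control libraries. The part of these cells in the values of Vim and Gfap was not tested.

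Markers of the vascular, meningeal and immune cells that also make vimentin were not called, where 0.387% of all tested genes were. The 8 endothelial markers summed to 405 to 468 TPM in the knockout and 429 to 560 TPM in the control libraries, and all 8 had log2 changes below 0 (Cldn5 −0.09, Ly6c1 −0.49). The 8 markers of pericytes and smooth muscle summed to 89.5 to 103 TPM in the knockout and 106 to 114 TPM in the control libraries, again with all 8 below 0 (Rgs5 −0.06, Tagln −0.34). The 8 markers of meningeal fibroblasts summed to 211 to 241 TPM in the knockout and 245 to 279 TPM in the control libraries, and 7 of them were below 0 (Dcn −0.04, Col1a2 −0.44). The part of vascular and meningeal cells in the Vim value was not tested. The 8 microglia markers summed to 250 to 267 TPM in the knockout and 242 to 253 TPM in the control libraries. Their median log2 change was 0.05, with 5 above 0 and 3 below. C1qb was at 0.25 and P2ry12 at −0.34, both without overlap between the groups and neither called. Of 8 markers of ependyma and choroid plexus, Foxj1 rose, at 16.3 ± 1.13 TPM in the knockout and 8.6 ± 1.48 TPM in the control cortex (SD, n = 3 each; limma, adjusted p = 0.0428), while the other 7 had log2 changes below 0. Their sum, most of it from Ttr of the choroid plexus, was 696 to 1041 TPM in the knockout and 759 to 1549 TPM in the control libraries. None of the markers in these lists was at 0 in all libraries, and the part of ependymal cells and microglia in the Vim value was not tested.

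For the neuronal members, the markers of cortical neurons did not share the lower values. The 8 markers of excitatory cortical neurons had a median log2 change of 0.03, with 6 above 0, and summed to 943 to 984 TPM in the knockout and 882 to 956 TPM in the control libraries (log2 change 0.04 for Slc17a7 and 0.20 for Neurod6). The 8 interneuron markers also had a median of 0.03, and summed to 2135 to 2206 TPM in the knockout and 1706 to 1938 TPM in the control libraries, most of it from the peptide genes Sst (log2 change 0.32) and Npy (0.30). None of these 16 markers was called, where 0.387% of all tested genes were. Of 8 genes of Schwann cells and of sensory and motor neurons, whose axons are rich in neurofilaments, Mnx1 was listed at 0 in all 6 libraries, and 3 of the 8 (Prph, Isl1 and Prx) reached a mean of 1 TPM. Of 8 oligodendrocyte markers, 7 of them tested, 4 were called as lower (Mbp, Cnp, Gpr17 and Bcas1), beside 0.287% of all tested genes. Their list summed to 156 to 179 TPM in the knockout and 292 to 305 TPM in the control libraries.

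**Figure D5:**
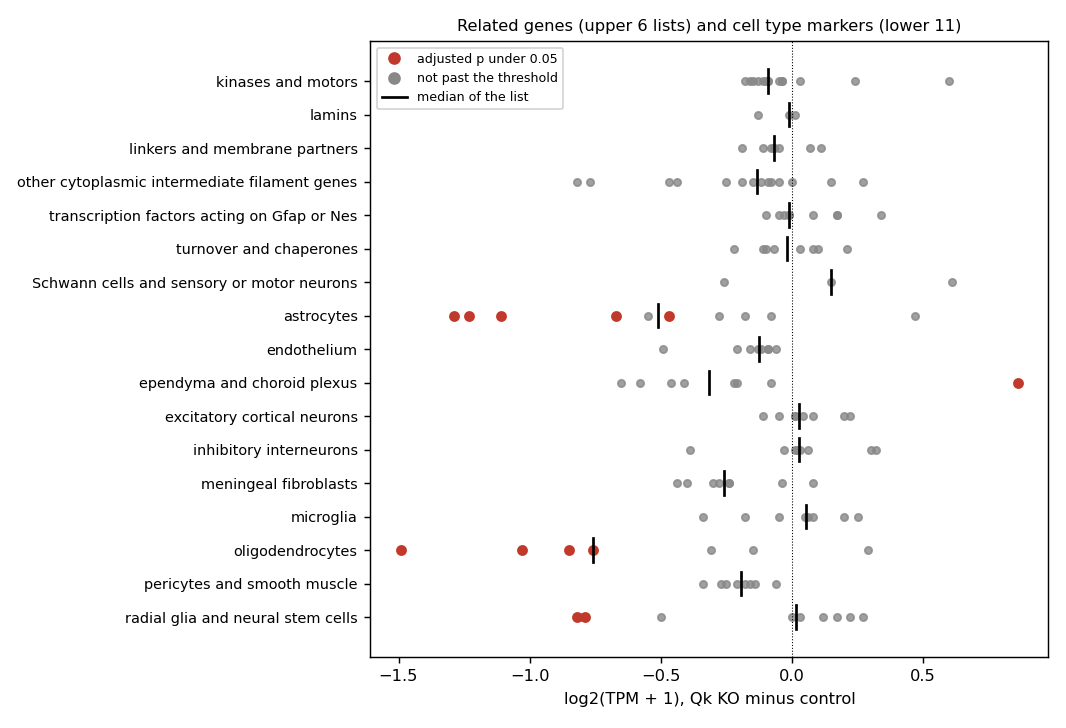
Log2 change of each tested gene, Qk knockout minus control on the log2(TPM + 1) scale, in 6 lists of genes related to intermediate filaments (upper rows) and 11 lists of cell type markers (lower rows), with the list median as a black bar. No related gene was past the adjusted threshold, and the called markers (red) were astrocyte, oligodendrocyte and radial glia genes, which fell, and Foxj1, which rose.

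The genes whose profiles over the 6 libraries lay nearest to those of 4 members were listed by root-mean-square distance of log2(TPM + 1), each gene centred on its own mean, among 9178 genes of at least 10 TPM. Nearest to Vim were Id3 (distance 0.0512), an inhibitor of basic helix-loop-helix factors, Trf (0.0736), the transferrin gene, and Olig2 (0.0802), a factor of the oligodendrocyte lineage. These had log2 changes of 0.69 for Id3, 0.61 for Trf and 0.65 for Olig2, beside 0.60 for Vim. Since the distance takes in the difference between the groups, like log2 changes follow from how the near genes were picked. Nearest to Gfap were Tmco3 (0.0373), Adam11 (0.0388) and Myl9 (0.0401), and nearest to Nes were Itpkb (0.028), Tmem98 (0.0366) and Zbtb12 (0.0374). Nearest to Nefl were Enthd2 (0.017), Rasa3 (0.0181) and Bin1 (0.0255). Of these 12 genes, Id3 and Olig2 were called, and with 6 libraries and 9178 genes close profiles can occur without any link between genes.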

How the data were processed

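Polyadenylated RNA was sequenced on the Ion Proton, per the labels' protocols. TPM per gene and library were made and deposited by the authors. STAR 2.4.1d and RSEM 1.3.0 and the builds mm10 and GRCm38.p4 are named in the submitters' processing notes. The sources used here give no step order, annotation or strand setting. The TPM of each library sum to a fixed total, so depth and counting error are unknown. Groups and replicate numbers came from the sample titles. The labels speak of separate brains, and p-values measure the spread between them. No pair of libraries was a duplicate (50 to 75 identical values among 14994 tested genes).

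The 14994 genes whose mean over the 6 libraries reached 1 TPM were tested on log2(TPM + 1) in limma 3.58.1 (R 4.3.3; eBayes with trend, group as the only term). The two-sided p of every tested gene entered 1 Benjamini-Hochberg adjustment, and the threshold was 0.05. The script was tested on simulated data, and protein sequences were not used here. Gene models and 3′ UTRs came from GENCODE M21 (GRCm38). The text names the 8 members, Qk, in each list the called genes or the 2 most abundant (a few values are not reported here), and the 3 nearest profiles of Gfap, Vim, Nes and Nefl. Prph, Mnx1, Isl1, Prx, Ttr, Aqp4, Aldh1l1, Fabp7, Hes1, Sox2, Hes5, Tnc, Prom1, P2ry12, Stat3, Aurkb and Cryab were named after their values were seen. Nt5c2, Ttc23 and Gm45102 were named for their overlap with members. The members and lists were chosen with earlier results of these data known. Alternatives were another pseudocount, other filters, median-of-ratios scaling, no trend, a replicate block and leaving out each library.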

Additional observations from a re-analysis of the deposited data

How the results depend on the processing

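The directions of all members were kept under each of the 12 alternatives (11 for Nefh, which was not tested at a mean of at least 5 TPM). Ina was the nearest to losing its direction, at 0 to 2 decimals without control replicate 3. None of the 7 uncalled members was called under any of them. Vim was at a log2 change of 0.60 in each case but not called with no filter on low values (adjusted p = 0.0537), with no variance trend (0.105) or with the replicate number as a block (0.07), where 0 members were called. Without 1 library it ranged from 0.54 to 0.67, called in 2 of 6 fits (adjusted p from 0.0275 to 0.1), so 0 to 1 members were called. Fits without 1 library had fewer samples, and the fit with no filter had more genes. The cause of the lost call was not tested in any of these fits. Vim was called with a pseudocount of 0.1, a mean of at least 5 TPM (lowest adjusted p, 0.0123) and median-of-ratios scaling, which moved the median of all genes to 0.

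Genes called in all were 58 and went to 37 with no filter (9 higher, 28 lower), 28 with no trend (8 higher, 20 lower) and 38 with the replicate block (8 higher). They were 74 (21 higher, 53 lower) at a mean of at least 5 TPM, the highest count. Without knockout replicates 1, 2 and 3 they were 40, 28 and 34, and without control replicates 1, 2 and 3 they were 59, 27 and 31, with 6 to 21 higher and 20 to 38 lower. Libraries of the same number did not deviate together (correlations of 0.03, 0.03 and 0.01 across genes), so the numbers were not taken as pairs. The Vim to Gfap ratio and both sums kept their direction when 1 library was left out or values were rescaled. Depth is unknown and sets no limit that can be given here.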
